A study of Mus musculus with 18 samples.

Results

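The 9 genes described here are Glul, Oat, Rhbg, Slc1a2, Axin2, Rnf43, Lgr5, Tbx3 and Lect2, which in mouse liver are known from the hepatocytes around the central vein or as targets of Wnt signalling. They were taken by gene name from 18193 named genes on the array, with earlier results of these data known. Each gene is given by its probe set of highest mean over the 18 arrays. All 9 were among the 12578 genes tested, and all 9 of the probe sets used lay above the array's median on 18 of 18 arrays. Some were dim beside the other tested genes. By mean level, Lgr5 lay at percentile 21 of the tested genes, Axin2 at 38, Rnf43 at 38.8 and Tbx3 at 42.9. The other members lay between 51.5 (Rhbg) and 99 (Oat). RNA came from whole livers of male mice, 12 wk old, with 3 arrays for each of 6 groups, and each array held RNA pooled from 3 mice (9 mice per group, 54 mice in all). The knockout mice were Alb-Cre+/-/POR-lox+/+, called LivPORKOs, in which Cre under the albumin promoter removes the cytochrome P450 reductase gene from hepatocytes and leaves it in other liver cells. The control mice were Alb-Cre-/-/POR-lox+/+, so both genotypes carried the floxed alleles and the control mice had no Cre. Each genotype was fed a fish/fungal diet (ARASCO and menhaden oils), a canola diet or a lard diet for 8 weeks starting at 4 weeks of age, and all mice were fasted for 4 h before the liver was taken. All 6 groups shared an AIN-93G base diet with added cholesterol and sodium cholate, and the added fat is given as 7% in the sample labels and as 6% in the series text. Por itself was not analysed here, which leaves the genotypes as labelled. None of 6 hepatocyte markers passed the genotype test given below, and Alb averaged 14.66 in knockout livers and 14.67 in control livers on the deposited log2 scale. The summed linear level of the 6 lay between 93200 and 98320 in knockout livers and between 95210 and 103000 in control livers, with no overlap on lard (96170 to 98320 in knockout livers, 100400 to 103000 in control livers), and its part in the results was not tested.

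Cytochrome P450 reductase passes electrons to the microsomal cytochrome P450 enzymes, which hepatocytes use for drug, steroid and bile acid metabolism. Hepatocytes around the central vein receive Wnt and R-spondin signals from the endothelium of that vein, and beta-catenin with TCF/LEF factors switches on a set of genes there. Among these are genes that take up glutamate and ammonia and make glutamine, which clears the ammonia that the urea cycle upstream in the lobule has not used. Other targets of the same signal act back on it or mark the cells that receive it.

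The genes lie on different chromosomes of GRCm38.p6 except Axin2 and Rnf43, which are both on chromosome 11 (108917828 to 108950783 and 87663087 to 87735539). Oat spans chromosome 7 from 132557475 to 132576398, Rhbg spans chromosome 3 from 88242874 to 88254739, and Glul spans chromosome 1 from 153899929 to 153909723. Slc1a2 spans chromosome 2 from 102658239 to 102790784, Lgr5 chromosome 10 from 115450314 to 115587780, Tbx3 chromosome 5 from 119670534 to 119684724 and Lect2 chromosome 13 from 56529734 to 56548559. RefSeq promoter windows (GRCm38.p6, 250 bases before to 50 after the start) were matched for 6 of the 9 genes, and Rhbg, Lgr5 and Tbx3 had none in the table used. Oat differed between the genotypes, the Slc1a2 probe sets differed in their call, and Lect2 had the lowest p of the 9 for the fats. The promoters of these 3 genes are shown for that reason, and the results below do not use the sequences. They are written 5′ to 3′ on the gene's strand, and capitals mark the core letters of the TCF/LEF motif, searched as CTTTG followed by AA, AT, TA or TT on both strands, with no other motif searched. The windows are chr7:132576349-132576648 (minus strand) for Oat, chr2:102706188-102706487 (plus strand) for Slc1a2 and chr13:56548489-56548788 (minus strand) for Lect2.
Oat: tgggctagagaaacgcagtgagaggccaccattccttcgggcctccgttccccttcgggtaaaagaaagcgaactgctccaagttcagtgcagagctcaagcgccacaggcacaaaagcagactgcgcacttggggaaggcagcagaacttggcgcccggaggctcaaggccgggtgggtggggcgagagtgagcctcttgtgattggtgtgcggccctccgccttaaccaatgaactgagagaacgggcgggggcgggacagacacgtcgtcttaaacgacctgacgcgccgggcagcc
Slc1a2: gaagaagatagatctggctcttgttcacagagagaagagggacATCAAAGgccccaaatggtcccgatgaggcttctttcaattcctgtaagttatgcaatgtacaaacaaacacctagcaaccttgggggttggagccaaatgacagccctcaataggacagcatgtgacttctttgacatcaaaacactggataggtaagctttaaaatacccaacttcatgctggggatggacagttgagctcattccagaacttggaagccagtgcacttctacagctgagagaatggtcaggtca
Lect2: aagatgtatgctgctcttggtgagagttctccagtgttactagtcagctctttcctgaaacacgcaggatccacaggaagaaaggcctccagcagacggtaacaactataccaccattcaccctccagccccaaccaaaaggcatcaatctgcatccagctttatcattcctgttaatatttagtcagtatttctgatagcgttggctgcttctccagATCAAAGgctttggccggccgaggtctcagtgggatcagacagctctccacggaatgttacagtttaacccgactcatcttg
The Slc1a2 and Lect2 windows each held 1 match on the opposite strand, with its first base at -207 and -32 from the start. The windows of Oat, Glul, Axin2 and Rnf43 held none. The windows of Slc1a2 and Axin2 (chr11:108920099-108920398) and the second window of Rnf43 lie wholly inside the gene spans given above. Their starts are therefore internal starts and not the outermost start of the gene. At least 1 match was found in 5544 of 32851 RefSeq promoter windows (16.9%). A match in these letters is a description of the sequence and not a measured binding site, and windows of this length leave out more distant elements.

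In knockout livers, Oat and Rhbg were higher than in control livers over the 3 diets, by 1.34-fold and 1.63-fold, and no other gene of the 9 passed the test. That is 2 of 9 genes called, both higher, beside 4.57% of all tested genes called in this comparison (3.82% higher and 0.755% lower). After a repeated quantile normalization the calls among all tested genes were 401 higher and 163 lower, against 480 higher and 95 lower on the values as deposited. The 3 genes with an unadjusted p under 0.05 were Oat, Rhbg and Glul, beside 18% of all tested genes. The fitted difference was above 0 for 9 of 9 genes, with a median of 0.14 on the log2 scale beside -0.0047 over all tested genes, but 4 of the 9 lay below 0 in at least 1 alternative. Rnf43 did so after the repeated normalization (-0.000648), Tbx3 with the mean of all its probe sets (-0.00132), both without the third control pool on lard (-0.0397 and -0.0362), Axin2 without the second control pool on fish/fungal (-0.00179) and Lect2 without the second control pool on lard (-0.00553). In whole liver, more cells of a kind and more RNA per cell cannot be told apart. These differences were tested with limma on the log2 values, with Benjamini-Hochberg adjustment over the 12578 tested genes and a threshold of 0.05. The other probe sets of the 9 genes were fitted beside the other tested genes and adjusted over 12589 features.

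**Figure D1:**
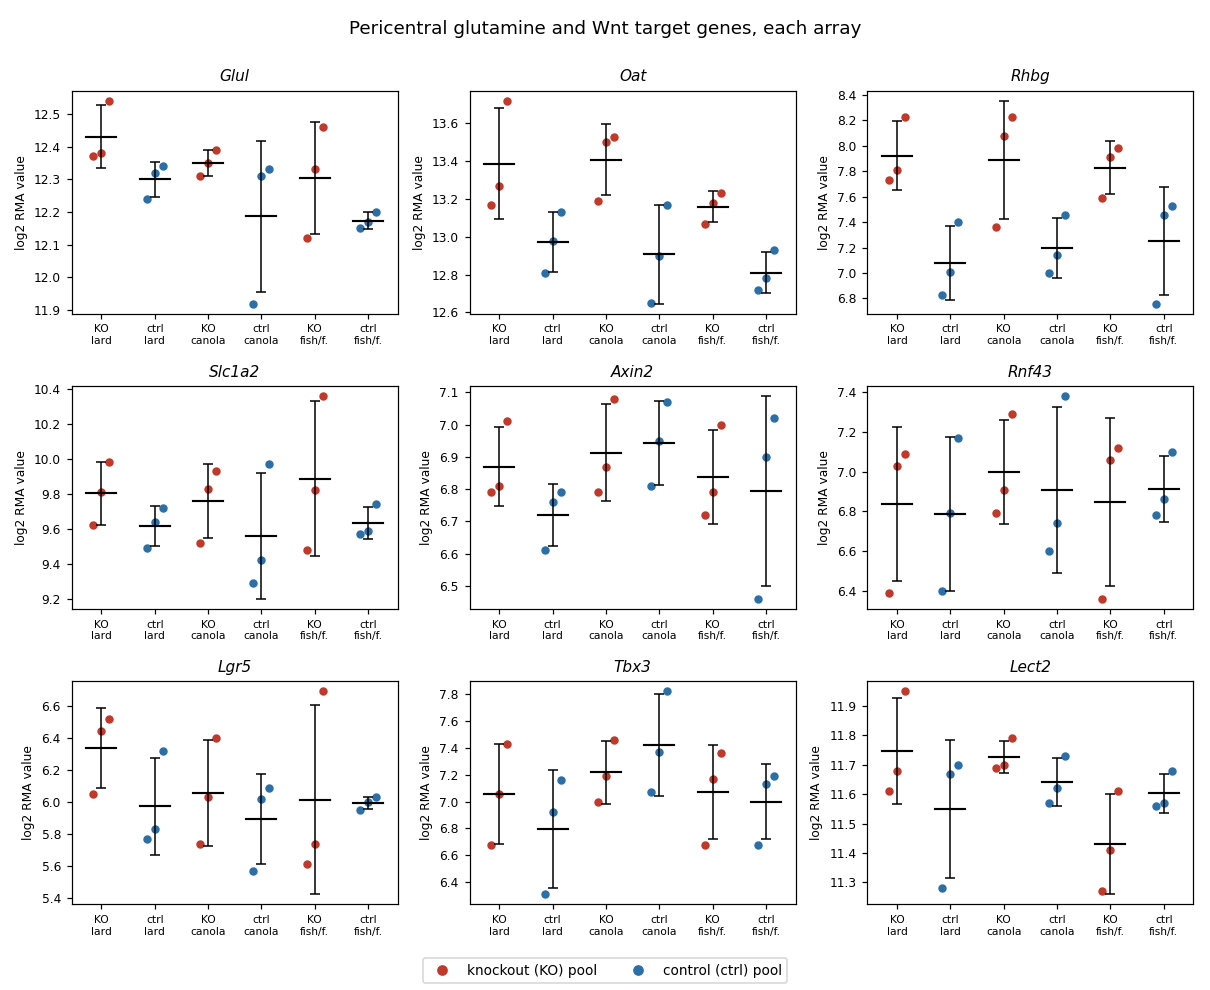
Log2 RMA values of the 9 genes on each of the 18 arrays, in pairs of knockout (red) and control (blue) for each diet. Each point is 1 pool of 3 mice, and bars give the mean ± SD of 3 pools. The red points of Oat lie above the blue points in every diet, while those of Rnf43, Lgr5 and Tbx3 mix with them.

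Oat, ornithine aminotransferase, is the mitochondrial enzyme that turns ornithine towards glutamate in pericentral hepatocytes. On the lard diet its log2 values were 13.17, 13.27 and 13.72 in knockout livers, against 13.13, 12.98 and 12.81 in control livers. On the canola diet they were 13.50, 13.53 and 13.19 in knockout livers, against 13.17, 12.65 and 12.90 in control livers. On the fish/fungal diet they were 13.07, 13.18 and 13.23 in knockout livers, against 12.72, 12.78 and 12.93 in control livers. Within each diet every knockout pool lay above every control pool, although on the canola diet the lowest knockout pool (13.192) and the highest control pool (13.168) were close. Such a separation in all 3 diets in the same direction was seen for 0.93% of all tested genes. Over the 3 diets the difference was 0.42 ± 0.081 (SE) on the log2 scale, with a 95% interval of 0.248 to 0.591 (limma, adjusted p = 0.00612). The difference was 0.42 on lard, 0.50 on canola and 0.35 on fish/fungal, and by itself no diet reached the threshold (limma, adjusted p of 0.236, 0.41 and 0.569). The highest of the 6 group means was that of knockout livers on canola (13.404 ± 0.184, SD, n = 3) and the lowest that of control livers on fish/fungal (12.812 ± 0.11, SD, n = 3).

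Rhbg belongs to the Rhesus glycoprotein family and carries ammonia across the cell membrane. Its log2 values on the lard diet were 7.81, 7.73 and 8.23 in knockout livers, against 7.40, 6.83 and 7.01 in control livers. On canola they were 8.08, 8.23 and 7.36 in knockout livers, against 7.46, 7.14 and 7.00 in control livers. On fish/fungal they were 7.59, 7.98 and 7.91 in knockout livers, against 7.53, 6.76 and 7.46 in control livers. The genotypes did not overlap on lard or on fish/fungal, and on canola the third knockout pool lay below the first control pool. The averaged difference was 0.70 ± 0.134 (SE) with a 95% interval of 0.419 to 0.985 (limma, adjusted p = 0.00561). It came to 0.84 on lard, 0.69 on canola and 0.57 on fish/fungal (limma, adjusted p of 0.108, 0.614 and 0.567). The 3 group means of knockout livers lay between 7.825 and 7.922, and those of control livers between 7.079 and 7.251.

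Glul, glutamine synthetase, joins ammonia to glutamate and is the enzyme by which pericentral hepatocytes are usually recognised. Its log2 values were 12.38, 12.37 and 12.54 in knockout livers and 12.24, 12.32 and 12.34 in control livers on lard, with the lowest knockout pool (12.37) close to the highest control pool (12.344). On canola they were 12.35, 12.39 and 12.31 in knockout livers and 12.33, 11.92 and 12.31 in control livers. On fish/fungal they were 12.12, 12.33 and 12.46 in knockout livers and 12.17, 12.15 and 12.20 in control livers. The genotypes overlapped on canola and on fish/fungal, and the low canola value of the second control pool stood furthest from the rest. The averaged difference was 0.14 ± 0.058 (SE), with a 95% interval of 0.0186 to 0.263, an unadjusted p of 0.0264 and an adjusted p of 0.199 (limma). A second probe set of Glul gave 0.22 ± 0.0726 (SE; limma, adjusted p = 0.0924), and its values followed those of the first over the 18 arrays (r = 0.93).

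Slc1a2, the glutamate transporter also called GLT-1, takes glutamate into the cell. The brightest of its 5 probe sets had values of 9.81, 9.62 and 9.98 in knockout livers and 9.64, 9.72 and 9.49 in control livers on lard. On canola they were 9.93, 9.83 and 9.52 in knockout livers and 9.97, 9.29 and 9.42 in control livers. On fish/fungal they were 9.48, 9.82 and 10.36 in knockout livers and 9.57, 9.59 and 9.74 in control livers. The genotypes overlapped in every diet, and the averaged difference of 0.21 ± 0.112 (SE; 95% interval -0.0212 to 0.449) did not pass the test (limma, adjusted p = 0.334).

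The 5 probe sets of Slc1a2 did not give the same call. The second brightest was higher in knockout livers by 0.49 ± 0.111 (SE; 95% interval 0.257 to 0.726; limma, adjusted p = 0.0157), in an alternative added after the data had been seen. It stayed called in 18 of 18 fits without 1 array, at 0.413 to 0.564 (limma, adjusted p of 0.00358 to 0.0401). Its values were 8.67, 8.54 and 8.65 in knockout livers and 8.11, 8.17 and 7.91 in control livers on lard. On canola they were 8.60, 8.46 and 8.45 in knockout livers and 8.42, 7.54 and 8.07 in control livers. On fish/fungal they were 8.10, 8.53 and 8.98 in knockout livers and 8.09, 8.08 and 8.17 in control livers. The genotypes did not overlap on lard or canola with this probe set, and on fish/fungal the lowest knockout pool lay among the control pools. The third probe set gave 0.47 ± 0.136 (SE; limma, adjusted p = 0.0601), and the other 2 probe sets (-0.0891 and -0.0927) lay above the array's median on 0 of 18 arrays. Over the 18 arrays the brightest and the second brightest probe sets had r = 0.85.

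**Figure D2:**
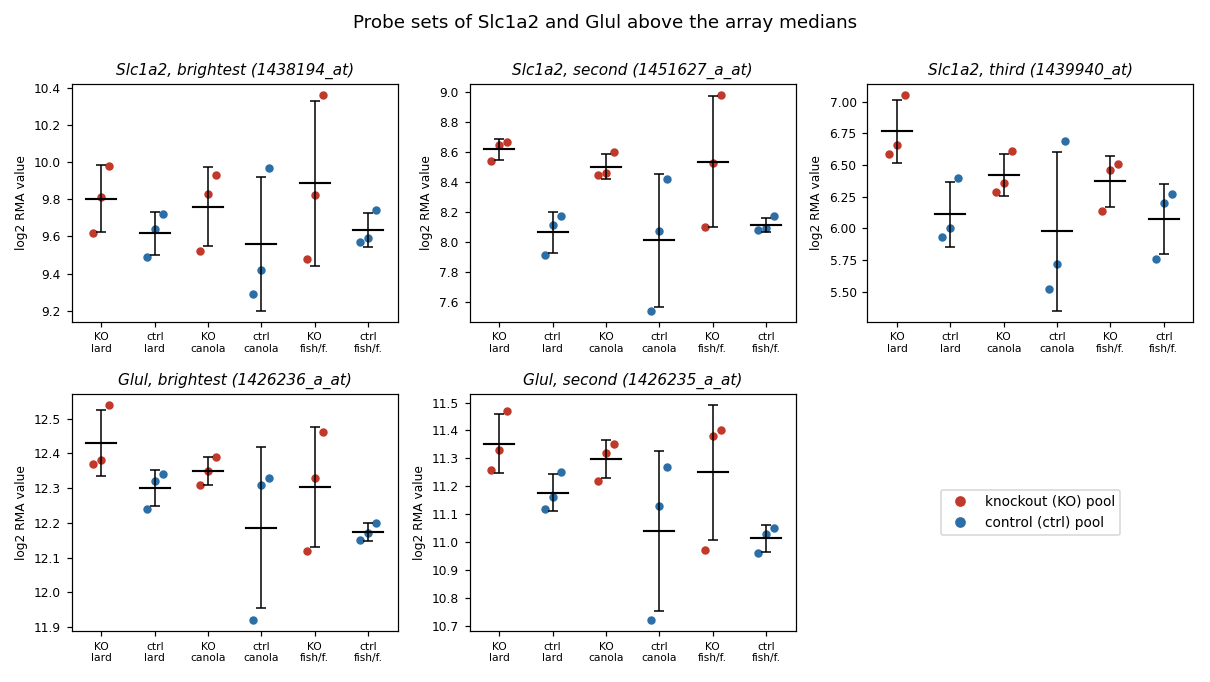
Log2 RMA values of the 3 probe sets of Slc1a2 and the 2 of Glul that lay above the array's median on all 18 arrays, by group, with knockout pools in red and control pools in blue. Points are pools of 3 mice and bars the mean ± SD of 3 pools. The gap between the genotypes is wider for the second (0.49) and the third (0.47) probe sets of Slc1a2 than for the brightest (0.21), a contrast between probe sets that was not tested.

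Axin2 and Rnf43 are both targets of Wnt signalling that damp it: Axin2 is a scaffold of the complex that degrades beta-catenin, and Rnf43 is a ubiquitin ligase that removes Frizzled receptors from the cell surface. Axin2 had values of 7.01, 6.79 and 6.81 in knockout livers and 6.76, 6.79 and 6.61 in control livers on lard. On canola it had 6.79, 6.87 and 7.08 in knockout livers and 7.07, 6.81 and 6.95 in control livers, and on fish/fungal 6.79, 6.72 and 7.00 in knockout livers and 7.02, 6.46 and 6.90 in control livers. The genotypes were separate on lard, by the gap between 6.792 in the lowest knockout pool and 6.786 in the highest control pool, and they overlapped on the other diets. The averaged difference was 0.05 ± 0.0763 (SE; 95% interval -0.107 to 0.215; limma, adjusted p = 0.776).

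Rnf43 varied more from pool to pool than between groups. Its values were 7.09, 6.39 and 7.03 in knockout livers and 7.17, 6.79 and 6.40 in control livers on lard, and 6.79, 6.91 and 7.29 in knockout livers and 7.38, 6.60 and 6.74 in control livers on canola. On fish/fungal they were 6.36, 7.06 and 7.12 in knockout livers and 7.10, 6.86 and 6.78 in control livers. The SD within groups was 0.352, while the 6 group means spanned 0.211. The averaged genotype difference was 0.02 ± 0.143 (SE; 95% interval -0.277 to 0.327; limma, adjusted p = 0.953).

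Lgr5, a receptor for R-spondins that marks hepatocytes next to the central vein and stem cells in other tissues, had values of 6.52, 6.05 and 6.44 in knockout livers and 5.77, 6.32 and 5.83 in control livers on lard. On canola they were 6.03, 5.74 and 6.40 in knockout livers and 6.02, 5.57 and 6.09 in control livers. On fish/fungal they were 5.61, 5.74 and 6.69 in knockout livers and 6.03, 6.00 and 5.95 in control livers. The knockout pools on fish/fungal lay on both sides of the control pools (SD 0.589 in knockout livers and 0.042 in control livers, n = 3 each). The averaged difference of 0.18 ± 0.138 (SE; 95% interval -0.107 to 0.474) did not pass the test (limma, adjusted p = 0.539).

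Tbx3, a T-box transcription factor, and Lect2, a protein that hepatocytes secrete, are both known as beta-catenin targets in liver. Tbx3 had values of 7.06, 6.68 and 7.43 in knockout livers and 7.16, 6.92 and 6.31 in control livers on lard. On canola it had 7.00, 7.19 and 7.46 in knockout livers and 7.82, 7.07 and 7.37 in control livers, and on fish/fungal 6.68, 7.17 and 7.36 in knockout livers and 7.13, 6.68 and 7.19 in control livers. The genotypes overlapped in every diet, and the averaged difference was 0.05 ± 0.142 (SE; 95% interval -0.255 to 0.345; limma, adjusted p = 0.912). Lect2 had values of 11.61, 11.68 and 11.95 in knockout livers and 11.67, 11.28 and 11.70 in control livers on lard. On canola it had 11.79, 11.70 and 11.69 in knockout livers and 11.73, 11.57 and 11.62 in control livers, and on fish/fungal 11.41, 11.27 and 11.61 in knockout livers and 11.68, 11.57 and 11.56 in control livers. Its genotype difference was 0.20 on lard, 0.09 on canola and -0.17 on fish/fungal, and the average of 0.04 ± 0.0666 (SE; 95% interval -0.101 to 0.18) did not pass the test (limma, adjusted p = 0.816).

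Within single diets, 0 of 9 genes were called on lard, on canola or on fish/fungal, beside 0.986%, 0.0636% and 0.294% of all tested genes. Oat and Rhbg were the 2 genes with an unadjusted p under 0.05 in each of the 3 diets, beside 10.5% of all tested genes on lard, 6.14% on canola and 7.62% on fish/fungal. On lard, knockout pools lay above all control pools for 4 of 9 genes (Glul, Oat, Rhbg and Axin2), beside 9.14% of all tested genes. On canola this held for 1 gene (Oat), beside 7.04%, and on fish/fungal for 2 genes (Oat and Rhbg), beside 5.72%. The median difference of the 9 genes was 0.20 on lard, 0.16 on canola and 0.07 on fish/fungal, while over all tested genes it was -0.0039, 0.011 and -0.0077. Whether the genotype difference depended on the diet was tested as an interaction, and 0 of 9 genes and 0% of all tested genes were called (limma, adjusted p = 1). The lowest unadjusted interaction p was that of Lect2 (0.0944), and 242 tested genes were under an unadjusted p of 0.05.

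**Figure D3:**
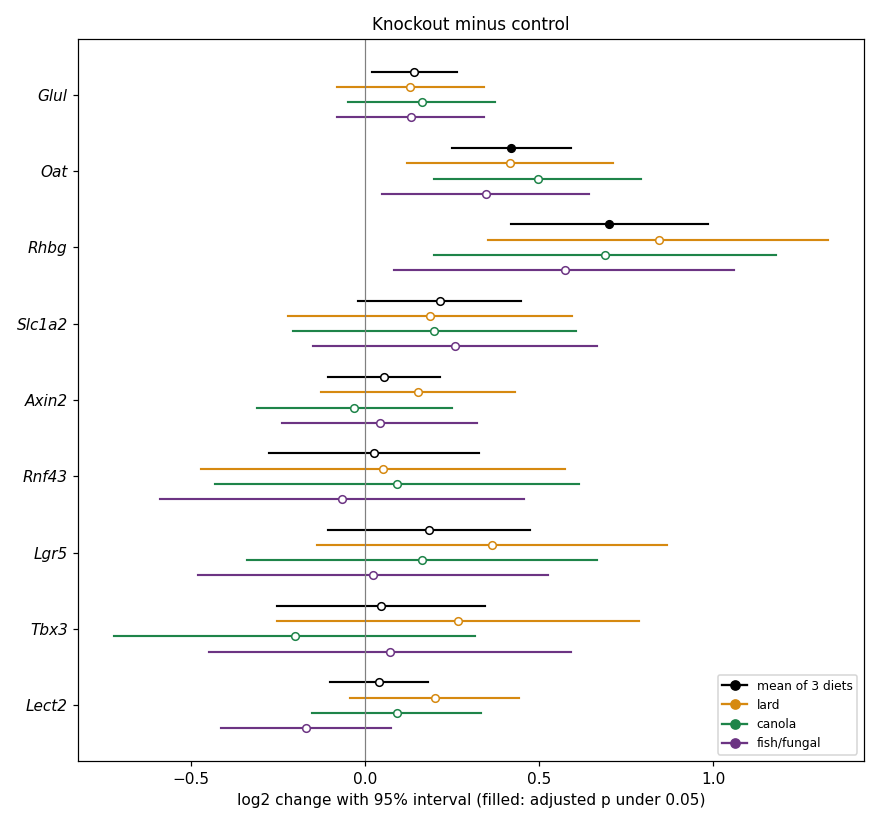
Log2 difference between knockout and control livers for each gene, with the 95% interval, averaged over the 3 diets (black) and within each diet (coloured). Filled points passed an adjusted p of 0.05. Only the averaged differences of Oat (0.42) and Rhbg (0.70) are filled, and their intervals lie above 0 in every diet.

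The diets were compared within each genotype, to ask whether the fats moved these genes. Between the fish/fungal and lard diets, 0 of 9 genes were called in knockout livers and 0 of 9 in control livers, beside 0.461% and 0.716% of all tested genes. Between fish/fungal and canola the counts were again 0 of 9 in knockout livers and 0 of 9 in control livers, beside 0.159% and 0.262%. Between canola and lard, averaged over the genotypes, 0 of 9 genes and 0% of all tested genes were called, with 852 tested genes under an unadjusted p of 0.05. Of the 9 genes, Lect2 had an unadjusted p under 0.05 in both comparisons made in knockout livers, beside 8.55% of all tested genes between fish/fungal and lard and 5.92% between fish/fungal and canola. Tbx3 had one between canola and lard, beside 6.77%.

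Lect2 was the gene with the lowest p for the fats. In knockout livers its fish/fungal values of 11.41, 11.27 and 11.61 stood against 11.79, 11.70 and 11.69 on canola and 11.61, 11.68 and 11.95 on lard. The fish/fungal pools lay below all canola pools, a separation in that direction seen for 4.78% of all tested genes, and the highest of them (11.614) lay just above the lowest lard pool (11.606). The difference was -0.31 ± 0.115 (SE; 95% interval -0.557 to -0.071) between fish/fungal and lard, with an unadjusted p of 0.0143 and an adjusted p of 0.399 (limma). Between fish/fungal and canola it was -0.30 (95% interval -0.541 to -0.0542; limma, adjusted p = 0.693). In control livers the difference between fish/fungal and lard was 0.06 (95% interval -0.188 to 0.299). The interaction given above takes canola and fish/fungal together against lard. Whether the difference between fish/fungal and lard itself differed between the genotypes was not tested.

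Tbx3 had group means of 7.216 on canola and 7.059 on lard in knockout livers, and of 7.419 on canola and 6.793 on lard in control livers. Averaged over the genotypes this was a difference of 0.39 ± 0.174 (SE; 95% interval 0.0242 to 0.759) with an unadjusted p of 0.038 and an adjusted p of 0.703 (limma). Oat was lower on fish/fungal than on lard by values that did not pass the test, -0.23 in knockout livers and -0.16 in control livers (limma, adjusted p of 0.74 and 0.871). The corresponding difference of Glul was -0.13 in each genotype, and in control livers its fish/fungal pools (12.17, 12.15 and 12.20) lay below the lard pools (12.24, 12.32 and 12.34), as did those of 7.39% of all tested genes. Rhbg differed by -0.10 in knockout livers and 0.17 in control livers (95% interval -0.319 to 0.663 in control livers).

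**Figure D4:**
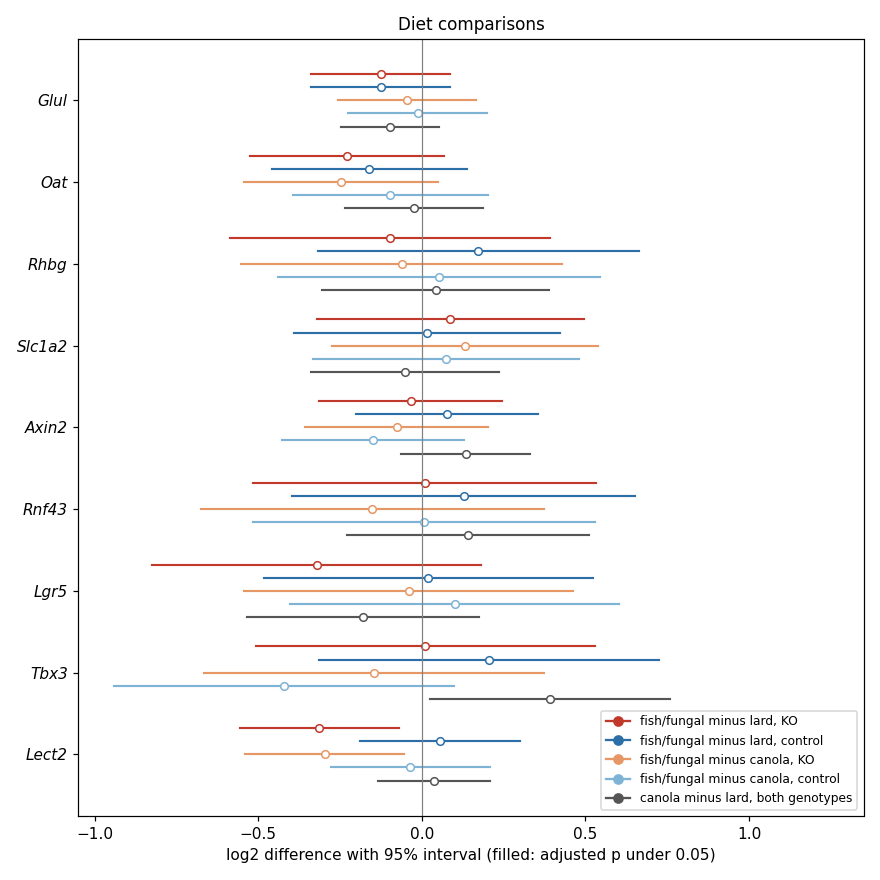
Log2 differences between diets for each gene with 95% intervals, for fish/fungal against lard and against canola within each genotype and for canola against lard over both. Filled points would mark an adjusted p under 0.05, and there are none. The intervals of Lect2 in knockout livers and of Tbx3 between canola and lard lie to 1 side of 0.

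The likeness of the genes over the 18 arrays is given as a description with no test, since the arrays share the genotype and diet differences above. Oat and Rhbg had r = 0.82 (rho = 0.77), and r = 0.66 once each group's mean was taken off. Glul and Slc1a2 had r = 0.70 (rho = 0.73), with 0.73 within groups, and Oat and Glul had r = 0.75, with 0.62 within groups. Among the Wnt feedback genes and targets, Rnf43 and Tbx3 had r = 0.79 (rho = 0.63) and 0.88 within groups, and Axin2 and Tbx3 had r = 0.73 and 0.66 within groups. Across these roles Glul and Lgr5 had r = 0.65, with 0.60 within groups. Between Rhbg and Lgr5 the r was 0.16, with -0.18 within groups, and Lect2 had r between 0.20 and 0.44 with each of the other genes.

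Rnf43 also followed a property of the arrays. Its values varied with the 75th percentile of all probe sets on an array, with Pearson r = 0.68 (permutation p = 0.0025, adjusted over 9 genes 0.022) and Spearman rho = 0.62 (permutation p = 0.0076, adjusted 0.068). The r was 0.74 in knockout livers, 0.65 in control livers, 0.82 once group means were taken off, and 0.60 without the 2 arrays farthest from the median. Glul had r = 0.59 (permutation p = 0.0088, adjusted 0.04) and rho = 0.45 (permutation p = 0.062, adjusted 0.12), with r = 0.54 in knockout livers, 0.55 in control livers and 0.55 without the 2 arrays farthest from the median. Rhbg had r = 0.25 (permutation p = 0.31) and Oat r = 0.48 (permutation p = 0.044, adjusted 0.1), with 0.16 in knockout livers and 0.79 in control livers. Lgr5 had r = 0.52 (permutation p = 0.028, adjusted 0.084), with 0.43 in knockout livers and 0.59 in control livers. Tbx3 had r = 0.43 (permutation p = 0.076, adjusted 0.14) and 0.68 once group means were taken off, beside the 0.82 of Rnf43, its closest partner above. Slc1a2 had r = 0.40 (permutation p = 0.096, adjusted 0.14) and rho = 0.50 (permutation p = 0.034, adjusted 0.12), with r = 0.10 in knockout livers and 0.71 in control livers. Axin2 (r = 0.16) and Lect2 (r = 0.02) had the lowest values. Once group means were taken off, r was 0.44 for Glul, 0.31 for Oat, 0.41 for Lgr5 and 0.38 for Slc1a2. It was then 0.03 for Rhbg, 0.20 for Axin2 and -0.23 for Lect2. The permutations shuffled all 18 arrays without regard to their groups. The percentile lay between 7.111 and 7.26 in knockout arrays and between 7.123 and 7.227 in control arrays, with means 0.026 apart. After the repeated quantile normalization the averaged differences were 0.409 for Oat and 0.678 for Rhbg (limma, adjusted p of 0.0082 and 0.0077). The Rnf43 values after it had r = 0.60 with the percentile as deposited. Beyond these values, the part of the percentile in the results was not tested. Over all tested genes the quartiles of such r values were -0.26 and 0.40.

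**Figure D5:**
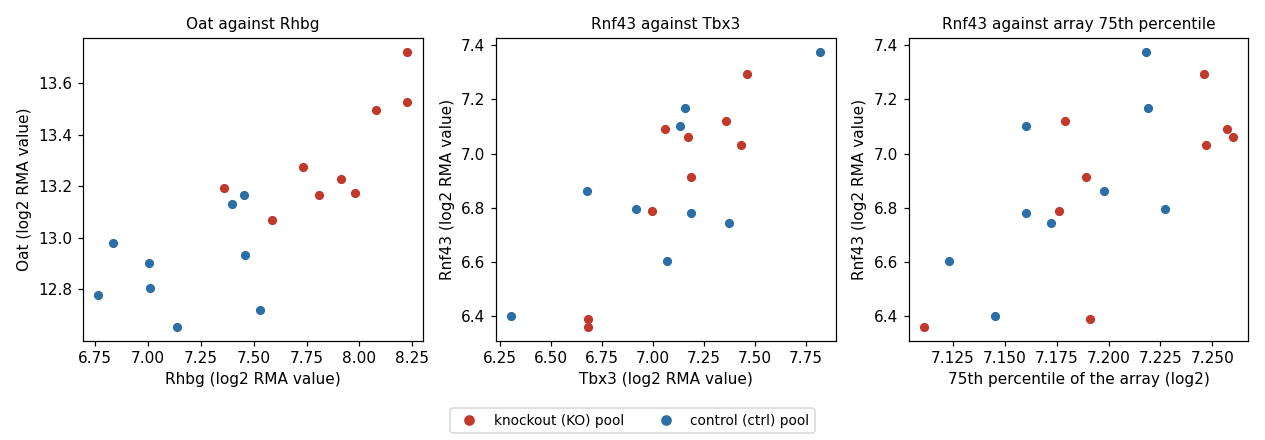
Each point is 1 array, with knockout pools in red and control pools in blue, for Oat against Rhbg (r = 0.82), Rnf43 against Tbx3 (r = 0.79) and Rnf43 against the 75th percentile of the array (r = 0.68), all in log2 RMA values. In the left panel the knockout pools lie towards the upper right, while in the other 2 panels the genotypes mix.

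The genes most like each of the 9 in pattern over the 18 arrays were taken as the 3 with the highest Pearson r. For Oat they were Lhpp (r = 0.908), Lgals3bp (0.876) and Gstt3 (0.869), and for Rhbg they were Myo5b (0.887), Nmt2 (0.881) and Mdh2 (0.876). For Glul they were Rab11fip3 (0.877), Gulo (0.847) and C1s1 (0.835), and for Slc1a2 Anpep (0.854), Aqp9 (0.839) and Papss2 (0.831). For Axin2 they were Srcap (0.755), Kif3b (0.725) and Rnf19a (0.701), for Rnf43 Ccnyl1 (0.868), Cd2bp2 (0.857) and Usp40 (0.849), and for Tbx3 Pank1 (0.883), Adprhl2 (0.873) and Plpp3 (0.828). For Lgr5 they were Lamp1 (0.874), Usp21 (0.846) and Kidins220 (0.838), and for Lect2 Spp2 (0.701), 9030619P08Rik (0.672) and Ppp1r10 (0.642). Lhpp and Gulo are themselves on the list of pericentral genes given next, and Gulo did not pass the genotype test (0.07; limma, adjusted p = 0.747).

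A few other pericentral genes passed the test, all in the same direction as Oat and Rhbg. Their list was chosen with earlier results of these data known, so the count is only a description. Over all tested genes, 3.82% were called higher and 0.755% lower. Of 14 tested pericentral hepatocyte markers other than these 9 genes, 3 were higher in knockout livers and 0 lower, with a median difference of 0.12. They were Cyp1a2, which oxidises caffeine and aromatic amines (0.63 ± 0.109, SE; limma, adjusted p = 0.00254), Lhpp, a phosphatase (0.46 ± 0.101, SE; adjusted p = 0.0136), and Aldh1a1, which makes retinoic acid (0.28 ± 0.0597, SE; adjusted p = 0.0119). Cyp2e1 averaged 14.16 in knockout livers and 14.164 in control livers and was not called. Slco1b2 (12.967 and 13.03), Rgn (13.541 and 13.565) and Avpr1a (7.506 and 7.619) also averaged lower in knockout livers, without a call. The other markers of the list averaged higher. The summed linear level of the 14 markers lay between 68850 and 79530 in knockout livers and between 63220 and 72780 in control livers. Of 16 tested periportal markers, 0 were higher and 0 lower, with a median of -0.0046, and the lowest p belonged to Igf1 (-0.14; limma, adjusted p = 0.101) and Hsd17b6 (0.25; adjusted p = 0.129). Their summed level was 75840 to 84730 in knockout livers and 74360 to 85470 in control livers. On lard alone it was lower in knockout livers without overlap (76890 to 82940, against 84190 to 84850). The pericentral sums were higher in knockout livers without overlap on lard (70830 to 76590, against 66280 to 67980) and on fish/fungal (68850 to 79530, against 67660 to 68420). The sums were not tested.

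Of 20 tested genes of glutamine and glutamate metabolism beside the 9, 1 was higher in knockout livers and 0 lower, with a median of -0.014, where 4.57% of all tested genes were called. It was Asns, asparagine synthetase, which uses glutamine to make asparagine. Asns had a lowest, median and highest value of 6.66, 8.15 and 9.77 in knockout livers, against 5.56, 6.43 and 7.98 in control livers. The difference was 1.59 ± 0.314 (SE; limma, adjusted p = 0.00679). The pools of the genotypes overlapped on canola and on fish/fungal. On lard the lowest knockout pool (8.15) lay above the highest control pool (7.43), a separation in that direction seen for 9.14% of all tested genes.

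Between the genotypes, 4.57% of all tested genes were called (3.82% higher and 0.755% lower). Of 13 tested Wnt ligands, R-spondins and secreted inhibitors, 1 was higher in knockout livers and 0 lower (median 0.018). It was Rspo3, the R-spondin that central vein endothelium secretes and that binds Lgr4 and Lgr5, with a lowest, median and highest value of 7.06, 7.17 and 7.51 in knockout livers, against 6.67, 6.91 and 7.08 in control livers. The difference was 0.31 ± 0.061 (SE; limma, adjusted p = 0.00679), and it came to 0.09 (adjusted p = 0.294) with the mean of its 2 probe sets, of which the other lay above the array's median on 0 of 18 arrays. Of 31 tested Wnt receptors, intracellular components and targets such as Ccnd1, 2 were higher and 1 lower (median -0.026). Ccnd1, cyclin D1, was higher by 0.69 ± 0.103 (SE; limma, adjusted p = 0.000846), and its knockout pools lay above its control pools in all 3 diets. Fzd8, a Frizzled receptor, was higher by 0.50 ± 0.114 (SE, limma, adjusted p = 0.016). Lgr4, another R-spondin receptor, was lower by 0.26 on the log2 scale (-0.26 ± 0.0612, SE, limma, adjusted p = 0.0177). With the mean of their probe sets Fzd8 gave 0.37 (adjusted p = 0.127) and Lgr4 -0.10 (adjusted p = 0.275), with the other probe set above the array's median on 8 and 0 of 18 arrays. Ccnd1 is known to answer to many signals besides Wnt.

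Between the fish/fungal and lard diets, 1 gene of these lists was called, beside 0.716% of all tested genes in control livers and 0.461% in knockout livers. Ccnd1 differed by -0.97 ± 0.179 (SE; limma, adjusted p = 0.0122) in control livers, a call lost without the second control pool on lard (adjusted p = 0.0884) and without the first or the second control pool on fish/fungal (adjusted p of 0.0758 and 0.0713). In knockout livers the Ccnd1 difference was -0.75 (adjusted p = 0.0803). Where no gene of a list passed, those of lowest p were Gclc, a subunit of the enzyme that starts glutathione synthesis from glutamate (-0.46 in knockout livers and -0.27 in control livers; limma, adjusted p of 0.242 and 0.677), and among the ligands Wnt2 in knockout livers (-0.47; adjusted p = 0.0794) and Wnt4 in control livers (-0.21; adjusted p = 0.697). Among the pericentral markers it was Nr1i3, the nuclear receptor CAR, in both genotypes (0.41 in knockout livers and 0.56 in control livers; limma, adjusted p of 0.55 and 0.325).

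Some markers of other cell types were called between the genotypes, where 3.82% of all tested genes were called higher and 0.755% lower. Of 10 Kupffer cell and macrophage markers, 3 were higher in knockout livers and 0 lower (median 0.31): Cd68 by 0.52 (limma, adjusted p = 0.00693), C1qa by 0.40 (adjusted p = 0.0372) and C1qb by 0.40 (adjusted p = 0.0386). The C1qa and C1qb calls were lost after the repeated normalization (adjusted p of 0.0581 and 0.0594) and in 13 and 11 of the 18 fits without 1 array (adjusted p up to 0.088 and 0.0897, both without the second knockout pool on canola), and that of C1qb also with the mean of its probe sets (adjusted p = 0.0832). The summed linear level of the 10 markers lay between 6849 and 11810 in knockout livers and between 5608 and 9022 in control livers. Of 4 tested central vein endothelial markers 1 was higher (Rspo3), with a summed level between 392.9 and 517 in knockout livers and between 352.1 and 443.8 in control livers, and Kit lay above the array's median on 2 of 18 arrays. The pancreatic enzyme gene Cela1, 1 of 2 tested acinar markers, was lower by 0.57 on the log2 scale (-0.57, limma, adjusted p = 0.0179). The acinar sums lay between 631.9 and 1334 in knockout livers and between 918 and 1575 in control livers. They were mostly Cela1 itself, which averaged 9.553 in knockout livers and 10.128 in control livers, and so add little to its value. The other tested acinar marker, Prss2, averaged 6.208 in knockout livers and 6.285 in control livers and was not called. Cpa1 lay above the array's median on 0 of 18 arrays. Of 4 tested lymphocyte markers Ighm was lower (-0.58; limma, adjusted p = 0.0112), with sums between 289.3 and 343 in knockout livers and between 325.9 and 501 in control livers, and the call rests on 1 of its probe sets. The Ighm difference was -0.09 (adjusted p = 0.243) with the mean of its probe sets and -0.15 (adjusted p = 0.476) without cross-hybridizing ones. None of 9 liver endothelial, 9 stellate, 6 hepatocyte, 3 cholangiocyte and 1 adipocyte markers passed the test, and Krt7 and Adipoq lay above the array's median on 0 of 18 arrays. The part of these cells in the Oat and Rhbg results was not tested.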

How the data were processed

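Liver RNA from 18 pools was measured on Affymetrix Mouse Genome 430 2.0 arrays. The values used are log2 intensities deposited by the authors. The submitters' processing notes name RMA, with its version not given in the sources used here. They ranged from 2.409 to 14.89, array medians lay between 5.229 and 5.286, and arrays of a group correlated at 0.9928 to 0.9969. Of 45101 probe sets, 34945 had 1 gene symbol and 932 several, which were not used. Symbols of 34741 were updated by gene ID. Each gene took its probe set with the highest mean over 18 arrays, and genes above the array's median on at least 3 arrays were tested. limma 3.58.1 (R 4.3.3) fitted 6 group means with a mean-dependent prior (12 residual degrees of freedom), with Benjamini-Hochberg adjustment over 12578 genes. Pools hold different mice, so p-values measure the spread between pools. The fit was run on simulated data with independent noise for each gene, which left out differences shared by a whole array. That run does not check the results for the 9 genes. The 9 genes and all gene lists were chosen with earlier results of these data known. Genes named from a list passed the test between the genotypes or between fish/fungal and lard (up to 4 by p), had the lowest p where none passed, or define a cell type. Alternatives were a repeated quantile normalization, other filters on dim genes, the mean of all probe sets, leaving out cross-hybridizing probe sets, fitting only the groups compared, the replicate number as a block, and leaving out each array. Each other probe set of the 9 genes was added after the data had been seen.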

Additional observations from a re-analysis of the deposited data

How the results depend on the processing

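For the 9 genes, 2202 values were computed over the alternatives. Each other probe set of these genes is counted apart. Of the 2202, 2201 kept their side of the threshold, 1 crossed it, 0 called values changed sign, and 94 values that passed in neither setting did. The value that crossed was Rhbg on lard with only the groups compared in the fit (0.84, adjusted p = 0.049), which makes 1 gene of the 9 called there. Of 44 values for the other probe sets, added after the data had been seen, 1 crossed the threshold (the second brightest of Slc1a2, 0.49, adjusted p = 0.0157), 0 called values changed sign and 18 that passed in neither did. The averaged Oat difference ranged from 0.364 to 0.463 (limma, adjusted p of 0.00299 to 0.0175) and that of Rhbg from 0.621 to 0.79 (0.000982 to 0.0159) over the 18 fits without 1 array, and 2 genes of the 9 were called in each. Deviations of same-numbered pools of different groups had a median r of -0.008 over 45 pairs, 17 of them over 0.1. For differently numbered pools it was -0.04 over 90 pairs, 27 of them over 0.1. With 3 arrays per group these values cannot decide whether the numbers pair the samples. With the replicate number as a block, Oat had an adjusted p of 0.0104 and Rhbg of 0.00829, and called genes between fish/fungal and canola in knockout livers numbered 13, against 20 without it. The block also ended the calls of C1qa (adjusted p = 0.0569) and C1qb (0.0575). Counts over all tested genes moved by over 1.5 times in these settings. The filter at the 75th percentile, which leaves out Axin2, Rnf43 and Lgr5, gave 70 calls between the genotypes on lard (124 as reported), and the mean of all probe sets gave 24 on fish/fungal (37). Only the groups compared gave 1 between the genotypes on canola (8), 22 on fish/fungal (37), 12 between fish/fungal and lard in knockout livers (58) and 10 between fish/fungal and canola there (20). Without 1 array, calls between the genotypes ranged from 371 (without the second knockout pool on canola) to 698 averaged (575), from 30 (without the third control pool on lard) to 161 on lard, from 3 to 28 on canola and from 13 to 43 on fish/fungal. Between fish/fungal and lard they ranged from 12 to 116 in knockout livers and from 41 to 93 in control livers. Between fish/fungal and canola they ranged from 5 to 30 in knockout livers and from 19 to 48 in control livers (33). Between canola and lard they ranged from 0 to 4, and for the interaction from 0 to 1. The cause of these moves was not tested beyond the fewer genes or arrays that each setting leaves. The number of arrays limits the precision.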
